A study of Mus musculus with 18 samples.

Results

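Transcription factors and cofactors that set the slow or fast character of skeletal muscle fibres were examined in cultured mouse myotubes in which dystrophin was knocked down. They are 8 genes, *Prox1*, *Sox6*, *Six4*, *Six5*, *Eya1*, *Tead1*, *Tead4* and *Vgll2*, and every probe annotated to them was taken, which gave 21 of the 46632 probes on the array. Of these 21 probes, 10 were detected on all 18 arrays (detection p under 0.05), 5 on 1 to 17 arrays and 6 on none, and 12 were detected on at least 4. Over the whole array, 32.2% of probes were detected on all arrays and 53.9% on none. Every member except *Eya1* had a probe detected on all arrays. Where a gene has several probes, the one with the highest mean level represents it and the others are given beside it.

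Primary cells from the limb muscles of C57BL/10 neonates (3 to 5 days old) were grown and differentiated into myotubes, with muscle cells of different mice mixed at each of 4 culture occasions. A group of 7 cultures received siRNA against dystrophin on days 2 and 4, a group of 7 received siRNA against GL2, a firefly luciferase, on the same days, and 4 cultures were left untreated. All cultures had 48 h in differentiation medium before RNA was taken on day 6, and each went onto 1 Illumina MouseWG-6 v1.1 array. The 18 cultures are therefore not 18 separate animals, and p-values measure the spread between cultures that shared cell mixtures. Levels are normalized log2 bead intensities, and changes are differences of these levels with the standard error (SE) of 1 limma fit over all 3 groups. The threshold was 0.05 after Benjamini-Hochberg adjustment over all 46632 probes.

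In skeletal muscle, proteins of the sine oculis family (*Six4* and *Six5* here) with their Eya coactivators bind MEF3 elements and are known for driving the fast programme. Tead proteins bind MCAT elements of contractile genes with cofactors of the Yap and Vgll families, and Vgll2 is the member of the Vgll family best known from skeletal muscle. Sox6 represses slow genes, the slow myosin *Myh7* among them, in developing fast fibres of the mouse, whereas Prox1 is known for maintaining the slow programme and for specifying lymphatic endothelium.

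Promoter windows of both myosins are shown because the regulators are set against *Myh7* and *Myh4* here. They run from 250 bases before to 50 bases after a RefSeq start site on GRCm38.p6, 5′ to 3′ on the strand of the gene. Capitals mark matches on either strand to CATTCC (the MCAT core) and AACAAT (a Sox core). The *Myh7* window lies at chr14:54994577-54994876 on the minus strand and the *Myh4* window at chr11:67237562-67237861 on the plus strand.
*Myh7*: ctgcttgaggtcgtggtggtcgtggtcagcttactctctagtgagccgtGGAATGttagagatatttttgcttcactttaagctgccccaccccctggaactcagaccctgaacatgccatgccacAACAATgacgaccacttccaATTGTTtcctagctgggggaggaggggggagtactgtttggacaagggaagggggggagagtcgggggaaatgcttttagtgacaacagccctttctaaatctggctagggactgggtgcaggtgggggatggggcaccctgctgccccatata
*Myh4*: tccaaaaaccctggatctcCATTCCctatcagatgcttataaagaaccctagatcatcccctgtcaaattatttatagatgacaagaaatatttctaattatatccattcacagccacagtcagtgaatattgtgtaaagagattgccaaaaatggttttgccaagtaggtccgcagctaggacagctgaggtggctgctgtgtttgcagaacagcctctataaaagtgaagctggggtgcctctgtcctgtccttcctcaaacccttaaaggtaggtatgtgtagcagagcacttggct

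The *Myh7* window held the MCAT core once, on the opposite strand at -201 to -196 from the start, and the Sox core at -124 to -119 and, on the opposite strand, at -104 to -99. A second annotated *Myh7* start gives an overlapping window that holds the same pair of Sox cores at -201 to -196 and -181 to -176. That second window holds no CATTCC, so the MCAT match depends on the start site used. The *Myh4* window held the MCAT core at -231 to -226 and no AACAAT. Of all 32851 promoter windows of this length, 14.7% held CATTCC, 10.7% held AACAAT and 1.11% held AACAAT at least 2 times. No searched motif overlapped another. Windows were found for 5 of the 8 members, and TCAGGTTTC (a MEF3 element), held by 0.429% of all windows, occurred in a window of *Six4* on the opposite strand at -99 to -91. The windows of *Prox1*, *Six5* and *Vgll2* held none of these letters, and of those of *Sox6*, CATTCC occurred in 2 and AACAAT 2 times in 1. These matches describe letters only.

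The siRNA lowered its target: *Dmd* was 8.32 ± 0.16 (SD, n = 7) with dystrophin siRNA, 10.32 ± 0.16 (n = 7) with GL2 siRNA and 10.22 ± 0.12 (n = 4) untreated on its brightest probe, a change of -1.90 (SE 0.11, adjusted p = 1.8e-08) against untreated. A second detected *Dmd* probe was at -0.67 against untreated (SE 0.18, adjusted p = 0.11) and at -0.58 against GL2 siRNA (adjusted p = 0.039). Once group means were removed, average-linkage clustering put the arrays into 4 clusters, each with arrays of all 3 groups, which are not known to be the 4 occasions. Between 17551 and 18530 probes were detected per array. All 7 myotube markers measured were detected on all 18 arrays, and 2 of them, *Ckm* (-0.92, adjusted p = 1.7e-05) and *Tnnt3* (-0.30, adjusted p = 0.0057), fell with dystrophin siRNA against GL2 siRNA. *Ckm*, the muscle creatine kinase, was 12.20 ± 0.22 (SD, n = 7) with dystrophin siRNA, 13.12 ± 0.11 (n = 7) with GL2 siRNA and 12.61 ± 0.25 (n = 4) untreated. The summed linear signal of the myotube markers was 116453 to 123417 with dystrophin siRNA, 124221 to 133865 with GL2 siRNA and 120579 to 136653 untreated, and its part in the changes below was not tested. Of 3 markers of satellite cells and myoblasts, *Pax7* and *Myf5* were detected on no array, whereas *Cdh15*, a cadherin of myogenic cells, was detected on all 18, at 11.48 ± 0.41 with dystrophin siRNA, 11.53 ± 0.33 with GL2 siRNA and 11.10 ± 0.13 untreated, and did not pass in any comparison. In bulk RNA, fewer cells of a type and less RNA per cell cannot be told apart.

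Against untreated myotubes, dystrophin siRNA raised 2 of the 21 member probes, those of *Prox1* and *Tead4*, and lowered none. Over the whole array 0.907% of probes passed, 0.277% higher and 0.63% lower. Against GL2 siRNA, 4 member probes passed, with *Prox1* and both *Vgll2* probes higher and 1 of the 5 *Sox6* probes lower, where 3.76% of all probes passed, 1.6% higher and 2.16% lower. GL2 siRNA itself, against untreated myotubes, lowered both *Vgll2* probes and raised no member, where 0.733% of all probes passed, 0.339% higher and 0.395% lower. Of the 19437 probes detected on at least 4 arrays, 12 of the member probes among them, larger shares passed when these were fitted alone. They were 3.79% for dystrophin siRNA against untreated, 14% against GL2 siRNA and 4.17% for GL2 siRNA against untreated. The comparisons share arrays, so they are not independent of each other. The median change over the 21 member probes was 0.08 for dystrophin siRNA against untreated, 0.02 for dystrophin siRNA against GL2 siRNA and 0.13 for GL2 siRNA against untreated, beside 0.01, 0.0027 and 0.01 over all probes.

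**Figure D1:**
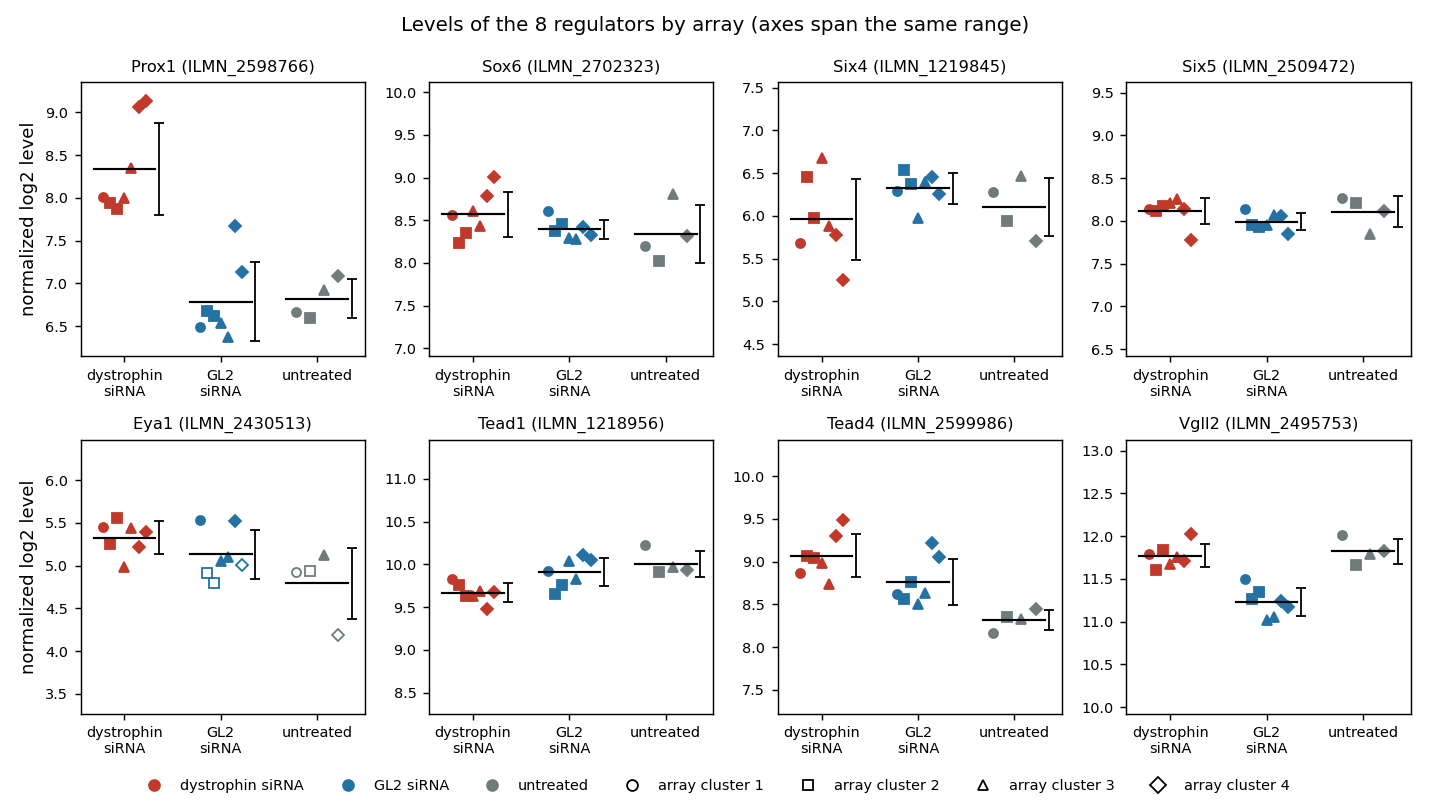
Normalized log2 level (y axis) of the probe that represents each of the 8 genes on every array, with dystrophin siRNA, GL2 siRNA and untreated arrays along the x axis. Horizontal lines are group means, bars are ± 1 SD, symbol shapes are the 4 array clusters and open symbols mark arrays on which the probe was not detected. *Prox1* with dystrophin siRNA lies above every other array, and *Vgll2* with GL2 siRNA below every other array.

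*Prox1*, the homeobox factor of the slow programme, had the largest change of any member. Its level with dystrophin siRNA had a lowest value of 7.86, a median of 8.01 and a highest of 9.13, against 6.37, 6.62 and 7.67 with GL2 siRNA, and 6.67, 6.59, 6.92 and 7.09 on the 4 untreated arrays. All 7 dystrophin siRNA arrays lay above all GL2 siRNA and untreated arrays, while the GL2 siRNA and untreated arrays overlapped. The change was 1.52 against untreated (SE 0.27, adjusted p = 0.0054), which is 2.87-fold, and 1.55 against GL2 siRNA (SE 0.23, adjusted p = 0.00023), which is 2.93-fold. The size depends on the processing. Over 26 alternatives it ran from 1.04 to 1.61 against untreated and from 1.04 to 1.70 against GL2 siRNA. With 1 array left out the lowest were 1.39 and 1.42. GL2 siRNA against untreated was at -0.03 (SE 0.27, adjusted p = 0.98). Every dystrophin siRNA array was above the GL2 siRNA array of the same number, by 1.25 to 2.00.

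*Prox1* also varied between the array clusters. The highest arrays of each group, at 9.06 and 9.13 with dystrophin siRNA, 7.67 and 7.14 with GL2 siRNA and 7.09 untreated, were all in cluster 4. The difference from untreated was nevertheless there in each cluster, at 1.34, 1.31, 1.25 and 2.01 in clusters 1 to 4, and that from GL2 siRNA was 1.52, 1.26, 1.72 and 1.69. Because *Prox1* also marks lymphatic endothelium, the markers of blood and lymphatic endothelium were read beside it. Of 11 measured, *Lyve1*, a defining lymphatic marker, and *Tie1* were detected on no array, and the lymphatic receptor gene *Flt4* was at -0.01 against untreated (adjusted p = 0.99) and -0.05 against GL2 siRNA (adjusted p = 0.89). None of the 11 passed with dystrophin siRNA against untreated, and against GL2 siRNA *Vwf*, a gene of vascular endothelium, rose by 0.68 (adjusted p = 0.0010). With GL2 siRNA against untreated 1 of the 11 passed, higher, and changes of the list ran from -0.70 to 1.14. Those with dystrophin siRNA ran from -0.46 to 0.69 against untreated and from -0.45 to 0.68 against GL2 siRNA. The summed linear signal of the list was 8520 to 11066 with dystrophin siRNA, 7950 to 9509 with GL2 siRNA and 8550 to 9898 untreated, and its part in the *Prox1* change was not tested.

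*Tead4*, a Tead factor of differentiating muscle cells, was highest with dystrophin siRNA and lowest in untreated myotubes. Its level had a lowest value of 8.74, a median of 9.04 and a highest of 9.48 with dystrophin siRNA, and 8.51, 8.64 and 9.22 with GL2 siRNA, whereas the 4 untreated arrays were at 8.16, 8.35, 8.32 and 8.44. Both siRNA groups lay wholly above the untreated arrays and overlapped each other. The change with dystrophin siRNA against untreated was 0.75 (SE 0.15, adjusted p = 0.015), a 1.68-fold rise, and it was 0.71, 0.70, 0.54 and 0.94 within clusters 1 to 4. Without untreated array 1 it was 0.69 (adjusted p = 0.077) and without untreated array 3 it was 0.75 (adjusted p = 0.055), so that call, and with it 1 of the 2 calls of that comparison, rests on those arrays. GL2 siRNA against untreated was at 0.44 (SE 0.15, adjusted p = 0.23), and at 0.42 (adjusted p = 0.027) with the clusters as a block. Dystrophin siRNA against GL2 siRNA was at 0.30 (SE 0.13, adjusted p = 0.26), with all 7 same-numbered pairs higher by 0.08 to 0.50, and with the pairs as a block it passed (adjusted p = 0.047). A second *Tead4* probe was detected on 4 arrays and was at 0.29 against untreated (SE 0.46, adjusted p = 0.91), and another was detected on none.

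*Tead1*, another MCAT-binding Tead factor, had its lowest mean with dystrophin siRNA. Its level had a lowest value of 9.48, a median of 9.68 and a highest of 9.83 with dystrophin siRNA, and 9.66, 9.92 and 10.11 with GL2 siRNA, against 10.23, 9.91, 9.96 and 9.93 on the untreated arrays. The dystrophin siRNA arrays lay wholly below the untreated ones and overlapped the GL2 siRNA arrays. The difference was -0.34 against untreated (SE 0.10, adjusted p = 0.19), with -0.40, -0.21, -0.31 and -0.35 in clusters 1 to 4, and -0.24 against GL2 siRNA (SE 0.09, adjusted p = 0.19), and neither passed. A second *Tead1* probe was detected on no array.

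*Vgll2*, the muscle cofactor of Tead proteins, was the member that GL2 siRNA changed. On its brightest probe the level was 11.77 ± 0.14 (SD, n = 7) with dystrophin siRNA, 11.23 ± 0.17 (n = 7) with GL2 siRNA and 11.82 ± 0.14 (n = 4) untreated. The lowest, median and highest values were 11.60, 11.76 and 12.03 with dystrophin siRNA and 11.02, 11.24 and 11.50 with GL2 siRNA, and the untreated arrays were at 12.01, 11.67, 11.79 and 11.82. The GL2 siRNA arrays lay below all others, and the dystrophin siRNA and untreated arrays overlapped. *Vgll2* rose by 0.54 with dystrophin siRNA against GL2 siRNA (SE 0.09, adjusted p = 0.0010), and fell by 0.60 with GL2 siRNA against untreated (SE 0.11, adjusted p = 0.0097). Dystrophin siRNA against untreated was at -0.05 (SE 0.11, adjusted p = 0.94).

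The second *Vgll2* probe, detected on all arrays, gave the same picture. It was 8.07 ± 0.19 (SD, n = 7) with dystrophin siRNA, 7.48 ± 0.28 (n = 7) with GL2 siRNA and 8.11 ± 0.19 (n = 4) untreated, with a change of 0.59 for dystrophin siRNA against GL2 siRNA (SE 0.12, adjusted p = 0.0065) and of -0.62 for GL2 siRNA against untreated (SE 0.14, adjusted p = 0.048). On both probes all 7 same-numbered pairs were higher with dystrophin siRNA, by 0.29 to 0.86 and by 0.28 to 0.77. The call for GL2 siRNA against untreated depended on single arrays: without untreated array 1 neither probe passed (-0.53, adjusted p = 0.058, and -0.71, adjusted p = 0.057), and the second probe did not pass without any 1 of 15 of the 18 arrays. With 1 array left out the changes were -0.65 to -0.53 and -0.71 to -0.56. The calls against GL2 siRNA held without any 1 array.

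*Sox6*, the repressor of slow genes, had 5 probes, and they did not move together. The brightest had a lowest value of 8.24, a median of 8.56 and a highest of 9.01 with dystrophin siRNA, and 8.28, 8.38 and 8.61 with GL2 siRNA, against 8.20, 8.02, 8.81 and 8.32 untreated, so that all 3 groups overlapped. It was at 0.23 against untreated (SE 0.15, adjusted p = 0.69) and 0.17 against GL2 siRNA (SE 0.13, adjusted p = 0.63), with 4 of 7 pairs higher. ILMN_1252898, another *Sox6* probe detected on all arrays, fell by 0.60 with dystrophin siRNA against GL2 siRNA (SE 0.13, adjusted p = 0.011). Over 26 alternatives its change ran from -0.66 to -0.26, and with 1 array left out from -0.66 to -0.53. Its lowest, median and highest values were 5.42, 5.87 and 6.00 with dystrophin siRNA and 5.99, 6.25 and 6.76 with GL2 siRNA (the highest dystrophin siRNA array lay above the lowest GL2 siRNA array), and the untreated arrays were at 6.19, 5.72, 5.60 and 5.98. Against untreated the dystrophin siRNA arrays were at -0.12 on this probe (adjusted p = 0.88), and GL2 siRNA was at 0.48 (SE 0.16, adjusted p = 0.21). ILMN_1224198, also a *Sox6* probe detected on all arrays, was at -0.33 against GL2 siRNA (SE 0.18, adjusted p = 0.46) although all 7 pairs were lower, by 0.22 to 0.44. The remaining 2 probes were detected on 3 arrays and 1 array. *Sox6* is also a factor of chondrocytes, and of 5 chondrocyte markers *Matn1* was detected on no array and *Sox9* fell by 0.47 with dystrophin siRNA against GL2 siRNA (adjusted p = 0.0015). *Col2a1*, the collagen of cartilage, was at 0.89 (adjusted p = 0.070). Their summed linear signal was 2310 to 2858 with dystrophin siRNA, 2719 to 3557 with GL2 siRNA and 2347 to 2777 untreated, and its part in the *Sox6* values was not tested. No single direction can therefore be given for *Sox6*, and the files do not say which transcript each probe reads.

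*Six4*, *Six5* and *Eya1* did not pass in any comparison. *Six4* had lowest, median and highest values of 5.25, 5.89 and 6.67 with dystrophin siRNA and 5.97, 6.38 and 6.53 with GL2 siRNA, against 6.28, 5.94, 6.47 and 5.71 untreated, with changes of -0.14 against untreated (adjusted p = 0.90) and -0.37 against GL2 siRNA (SE 0.18, adjusted p = 0.38). *Six5* had the narrowest spread of levels among these, at 8.12 ± 0.16 (SD, n = 7) with dystrophin siRNA, 7.99 ± 0.10 (n = 7) with GL2 siRNA and 8.11 ± 0.18 (n = 4) untreated. Its change was 0.01 against untreated (SE 0.10, adjusted p = 0.99) and 0.12 against GL2 siRNA (SE 0.09, adjusted p = 0.64). For both genes the groups overlapped in every comparison, and a second probe of each was detected on no array. *Eya1*, a phosphatase and the coactivator of these factors, was near the detection limit: its brightest probe was detected on 7 of 7 dystrophin siRNA, 4 of 7 GL2 siRNA and 1 of 4 untreated arrays. It was 5.33 ± 0.19 (SD, n = 7) with dystrophin siRNA, 5.13 ± 0.29 (n = 7) with GL2 siRNA and 4.79 ± 0.41 (n = 4) untreated, and its change of 0.53 against untreated (SE 0.17, adjusted p = 0.22) did not pass. The other 3 *Eya1* probes were detected on 1 array at most.

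**Figure D2:**
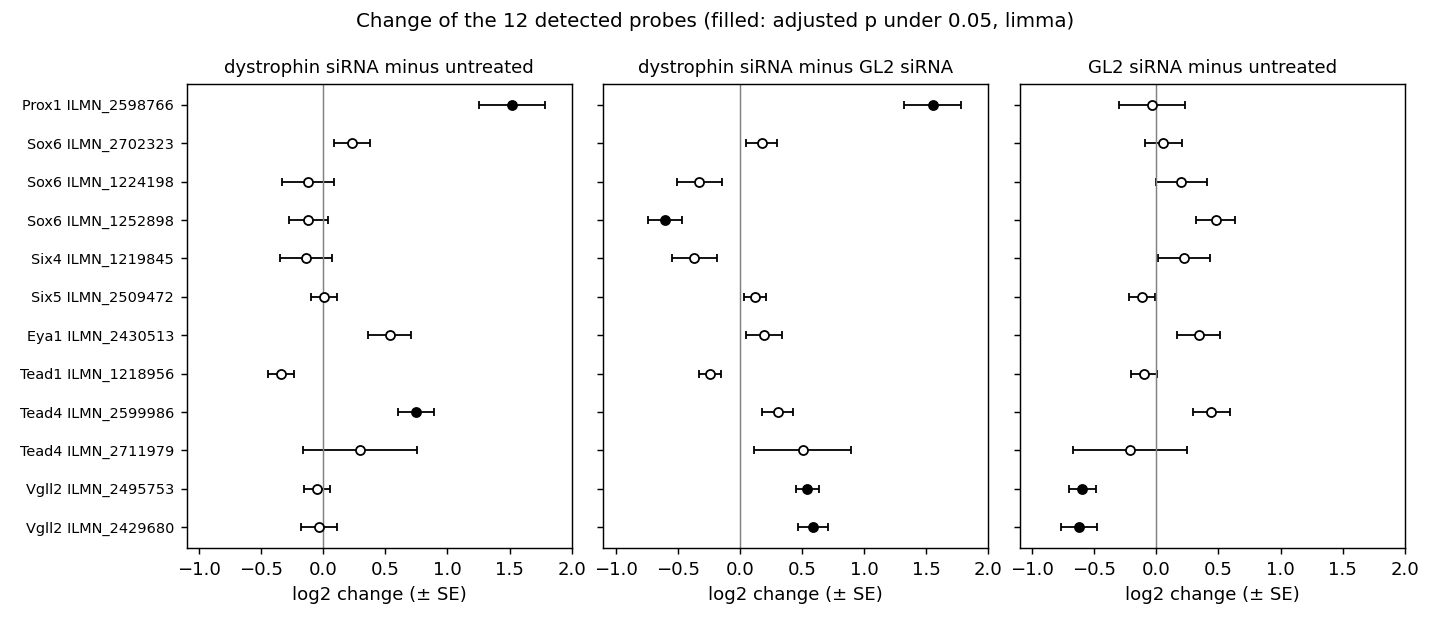
Log2 change ± SE (x axis) of the 12 member probes detected on at least 4 arrays (y axis) for dystrophin siRNA minus untreated, dystrophin siRNA minus GL2 siRNA and GL2 siRNA minus untreated, with filled points past an adjusted p of 0.05 (limma). *Prox1* is filled at 1.52 and 1.55, *Tead4* at 0.75, both *Vgll2* probes at 0.54 and 0.59 against GL2 siRNA and at -0.60 and -0.62 for GL2 siRNA, and 1 *Sox6* probe at -0.60.

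**Figure D3:**
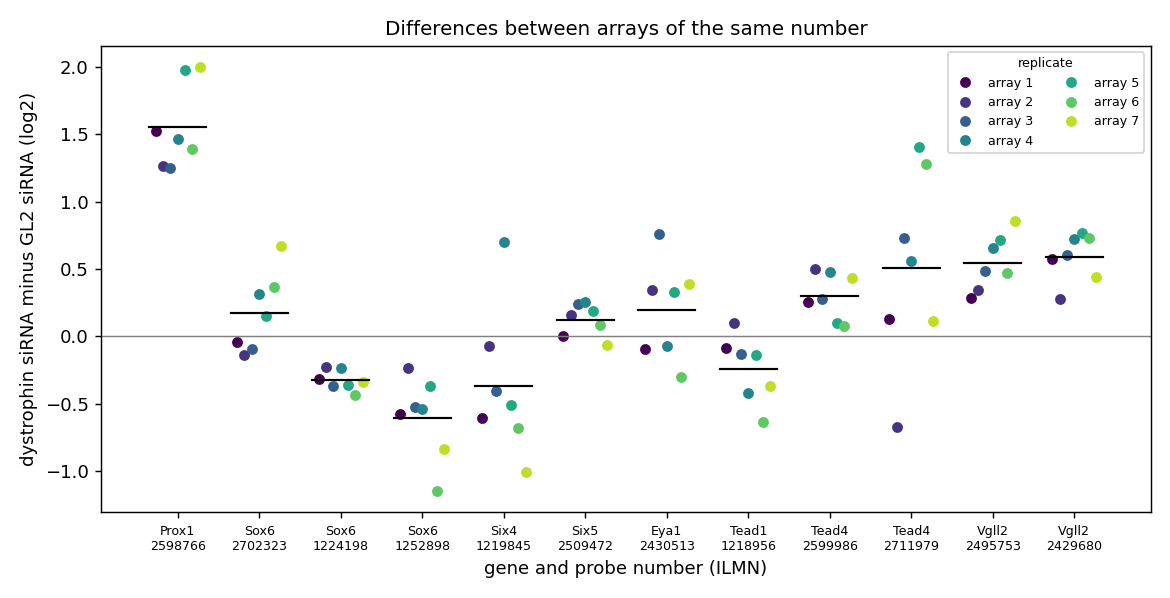
Difference in log2 level, dystrophin siRNA minus GL2 siRNA (y axis), between arrays of the same number for the 12 member probes detected on at least 4 arrays (x axis), with black lines at the mean of the 7 pairs. All 7 pairs are above 0 for *Prox1*, for the brightest *Tead4* probe and for both *Vgll2* probes, and all 7 are below 0 for 2 of the 3 *Sox6* probes shown.

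Between the siRNA groups the slow myosin differed by more than any of the members. *Myh7*, the slow myosin heavy chain, had a lowest level of 13.53, a median of 13.93 and a highest of 14.07 with dystrophin siRNA, and 9.47, 9.62 and 10.34 with GL2 siRNA, against 12.35, 12.38, 12.47 and 12.51 untreated. No groups overlapped, and dystrophin siRNA was higher by 1.42 against untreated (SE 0.16, adjusted p = 3.7e-05) and by 4.04 against GL2 siRNA (SE 0.13, adjusted p = 8.8e-13), while it fell by 2.62 with GL2 siRNA against untreated (SE 0.16, adjusted p = 4.4e-08). The *Myh7* probe is unnamed in the platform annotation and takes its name from the probe tables of the study.

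The probes of *Myh4*, the myosin of the fastest fibres, disagreed in size. The probe with the higher mean, ILMN_1236860, was 5.77 ± 0.34 (SD, n = 7) with dystrophin siRNA, 6.29 ± 0.27 (n = 7) with GL2 siRNA and 6.15 ± 0.27 (n = 4) untreated. It was at -0.53 against GL2 siRNA (SE 0.15, adjusted p = 0.065, and 0.023 with the pairs as a block) and at -0.38 against untreated (adjusted p = 0.52). The other *Myh4* probe, ILMN_1241214, was detected on 0 of 7 dystrophin siRNA, 7 of 7 GL2 siRNA and 3 of 4 untreated arrays, with lowest, median and highest values of 6.62, 8.31 and 9.16 with GL2 siRNA and 5.87, 6.04, 6.46 and 4.92 untreated. Bounds after background correction were set against the lowest level detected on each dystrophin siRNA array. On that probe *Myh4* was at least 8.82-fold lower in dystrophin siRNA than in GL2 siRNA myotubes, and at least 1.76-fold lower than untreated. The bounds themselves were not tested. The fitted log2 differences, which use the undetected values, were -5.40 (adjusted p = 3.4e-09) and -3.08 (adjusted p = 0.00020). With GL2 siRNA that probe was 2.33 higher than untreated on the log2 scale (SE 0.39, adjusted p = 0.0054). These sizes depend on the background correction: with none, the fitted log2 differences were -2.34 for dystrophin siRNA against GL2 siRNA (-5.40 with it), -0.98 for dystrophin siRNA against untreated (-3.08 with it) and 1.37 for GL2 siRNA against untreated, all past the threshold.

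Set beside these changes, the members fell into different orders across the 3 groups. *Myh7* was highest with dystrophin siRNA, then untreated, then GL2 siRNA. *Vgll2* had its lowest level in the same group as *Myh7*, with dystrophin siRNA and untreated arrays that did not differ beyond their spread. *Prox1* was high where *Myh7* was highest, but did not differ between untreated and GL2 siRNA arrays, where *Myh7* differed by 2.62. *Tead4* was lowest untreated, where *Myh7* was intermediate. Since the groups differ in both myosins, the relation of each member to *Myh7* and *Myh4* was computed only within the 7 dystrophin siRNA arrays, within the 7 GL2 siRNA arrays, and over the 7 same-numbered differences, 48 relations in all.

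None of the 48 relations passed (smallest Benjamini-Hochberg adjusted p = 0.21 by r, exact permutation test), and 4 by Pearson's r and 2 by Spearman's rho had an unadjusted p under 0.05. The largest was *Sox6* with *Myh4* in the GL2 siRNA arrays (r = 0.92, exact permutation p = 0.0044, adjusted p = 0.21, and rho = 0.86, p = 0.024, adjusted p = 0.56), where r was 0.79 without the 2 arrays farthest from the *Myh4* median. With median centring instead of quantiles that relation alone passed (r = 0.96, adjusted p = 0.0095). *Vgll2* with *Myh4* had r = 0.87 in the GL2 siRNA arrays (exact permutation p = 0.012, adjusted p = 0.26, rho = 0.86, p = 0.024, adjusted p = 0.56) and r = 0.80 in the dystrophin siRNA arrays (exact permutation p = 0.016, adjusted p = 0.26, rho = 0.71, p = 0.088, adjusted p = 0.56), and 0.79 and 0.62 without the 2 farthest arrays. These values use ILMN_1236860, a dim probe at 5.43 to 6.75 over all arrays, where the lowest levels detected per array were 4.88 to 5.12. The 1 relation with *Myh7* at an unadjusted p under 0.05 was that of *Sox6* over the pair differences (r = 0.80, exact permutation p = 0.044, adjusted p = 0.40, rho = 0.71, p = 0.088, adjusted p = 0.56), with r = 0.59 without the 2 farthest pairs. With the other *Myh4* probe in the GL2 siRNA arrays, *Sox6* was at r = 0.23 (exact permutation p = 0.60) and *Vgll2* at r = 0.17 (exact permutation p = 0.72).

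*Prox1* and *Myh7* had r = 0.65 in the dystrophin siRNA arrays (exact permutation p = 0.11, adjusted p = 0.40, rho = 0.64, p = 0.14, adjusted p = 0.56), r = -0.23 in the GL2 siRNA arrays (exact permutation p = 0.63, adjusted p = 0.83, rho = 0.25, p = 0.59, adjusted p = 0.89) and r = 0.70 over the pair differences (exact permutation p = 0.096, adjusted p = 0.40, rho = 0.68, p = 0.11, adjusted p = 0.56). Without the 2 arrays farthest from the *Myh7* median these r were 0.50, -0.14 and 0.39. With the other *Myh4* probe, *Prox1* was at r = -0.96 in the GL2 siRNA arrays (exact permutation p = 0.0046, adjusted p = 0.14, rho = -0.89, p = 0.012, adjusted p = 0.39) and *Tead4* at r = -0.92 (exact permutation p = 0.0089, adjusted p = 0.14, rho = -0.71, p = 0.088, adjusted p = 0.49), neither past the threshold. Both relations with that probe lie outside the 48 relations and their counts above. Their adjustment ran over a smaller set, the *Myh7* relations and those with that probe in the GL2 siRNA arrays. GL2 siRNA arrays 6 and 7, both in cluster 4, had the lowest values of that probe (6.62 and 7.43). The same arrays had the highest *Prox1* (7.67 and 7.14) and *Tead4* (9.22 and 9.05) among the GL2 siRNA arrays. Neither relation was computed without them. The permutations for all relations treat arrays as exchangeable, although some share a cluster. On residuals after group and cluster means over the 18 arrays, which share those means, r with *Myh7* was 0.48 for *Prox1*, 0.54 for *Sox6*, 0.50 for *Vgll2*, -0.31 for *Tead4* and -0.65 for *Tead1*.

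**Figure D4:**
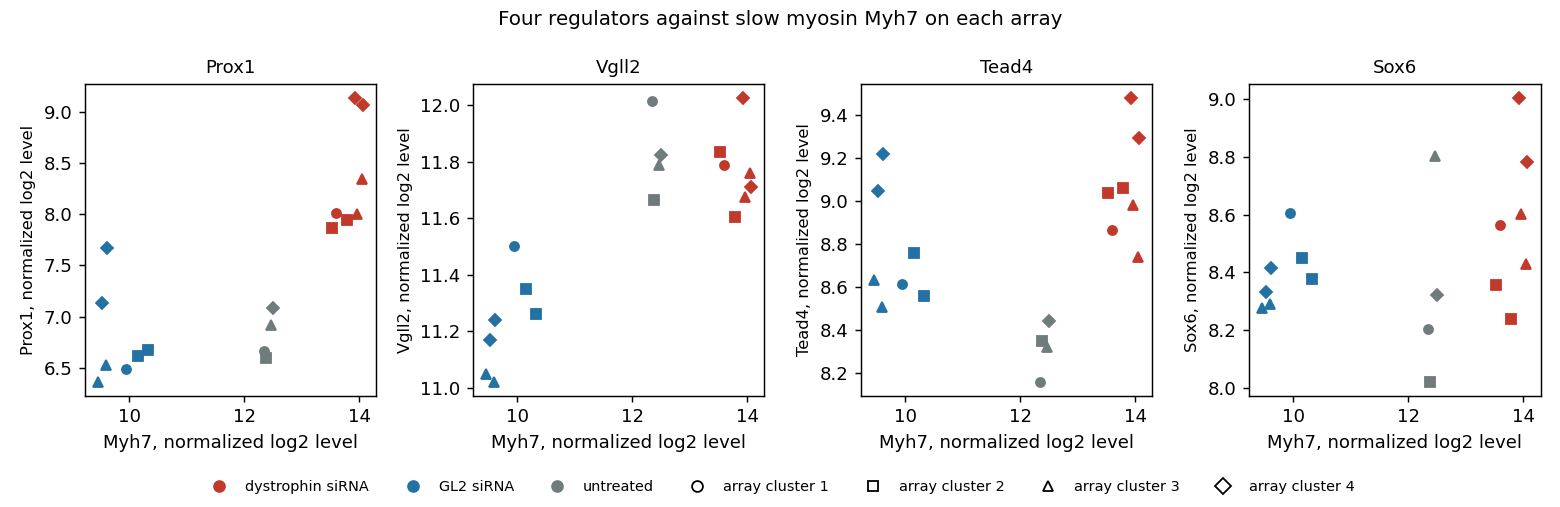
Normalized log2 level of *Prox1*, *Vgll2*, *Tead4* and *Sox6* (y axes) against that of *Myh7* (x axis) on each of the 18 arrays, coloured by group, with symbol shapes for the 4 array clusters. The groups stand apart along *Myh7*, at 13.53 to 14.07 with dystrophin siRNA, 9.47 to 10.34 with GL2 siRNA and 12.35 to 12.51 untreated.

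Of 14 other genes of the sine oculis, Eya, Dach, Tead and Vgll families and Tead cofactors measured, none passed in any comparison, and 7 of them, *Six3*, *Six6*, *Eya2*, *Dach1*, *Dach2*, *Vgll1* and *Vgll3*, were detected on no array. Of all probes 0.907% passed with dystrophin siRNA against untreated, 3.76% against GL2 siRNA and 0.733% for GL2 siRNA against untreated. Of the probes detected on at least 4 arrays, 3.79%, 14% and 4.17% passed when fitted alone. Only 7 of the 14 were detected on at least 4 arrays, too few to set against these shares. The median change of these 14 was 0.03 with dystrophin siRNA against untreated, 0.03 against GL2 siRNA and 0.06 for GL2 siRNA against untreated. The cofactor genes *Yap1* and *Wwtr1*, detected on all arrays, were at 0.04 (adjusted p = 0.97) and 0.10 (adjusted p = 0.85) with dystrophin siRNA against untreated.

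Of 22 other regulators of fibre type measured, none passed with dystrophin siRNA against untreated, and 3 fell with dystrophin siRNA against GL2 siRNA. Of all probes 3.76% passed in that comparison, and of the 19437 probes detected on at least 4 arrays 14% passed when these were fitted alone, 6.71% higher and 7.24% lower. *Ppargc1a*, the coactivator of oxidative metabolism, was 7.64 ± 0.24 (SD, n = 7) with dystrophin siRNA, 8.55 ± 0.38 (n = 7) with GL2 siRNA and 8.29 ± 0.32 (n = 4) untreated, and fell by 0.91 against GL2 siRNA (adjusted p = 0.0018). *Tbx15*, a T-box factor of glycolytic fibres, fell by 0.64 (adjusted p = 0.0063) and *Mef2a*, a MADS-box activator of contractile genes, by 0.52 (adjusted p = 0.012). *Mef2a* was also 0.61 higher with GL2 siRNA than untreated (adjusted p = 0.042), a call that was lost under 14 of 26 alternatives, with changes of 0.49 to 0.66. The median change of this list was -0.01 with dystrophin siRNA against untreated, 0.05 against GL2 siRNA and 0.04 for GL2 siRNA against untreated.

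Among 10 targets of Yap with Tead, 3 rose with dystrophin siRNA against GL2 siRNA: *Ccn2*, a matricellular protein, by 0.72 (adjusted p = 0.0086), *Ankrd1*, a stretch-responsive sarcomere protein, by 0.64 (adjusted p = 0.014) and *Amotl2*, a junction protein that binds Yap, by 0.60 (adjusted p = 0.0051), where 1.6% of all probes and 6.71% of the detected ones were higher. None passed with dystrophin siRNA against untreated, and with GL2 siRNA against untreated *Ankrd1* fell by 0.76 (adjusted p = 0.045), a call lost under 16 of 26 alternatives, with changes of -0.84 to -0.58. The median change was 0.36 with dystrophin siRNA against GL2 siRNA, 0.02 with dystrophin siRNA against untreated and -0.26 with GL2 siRNA against untreated. Several of these genes are also expressed by fibroblasts, whose 9 markers summed to a linear signal of 47865 to 77626 with dystrophin siRNA, 42589 to 62204 with GL2 siRNA and 56707 to 69339 untreated, with none of the 9 past the threshold, and their part in the change was not tested.

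Genes listed for slow and for fast fibres split by fibre type between the siRNA groups, and whether the members act on them was not tested. Both lists were written with earlier results of these data known, so the counts are no independent test of the split. The study had reported *Myh7* higher and *Pvalb*, *Myoz1*, *Mybpc2*, *Casq1* and *Actn3* lower with dystrophin siRNA in these arrays. Of 12 slow-fibre genes, 7 rose with dystrophin siRNA against GL2 siRNA and none fell, whereas of 13 fast-fibre genes 7 fell and 1, *Myh2*, rose, beside 1.6% of all probes higher and 2.16% lower (6.71% and 7.24% of the detected ones). Against untreated, dystrophin siRNA raised 2 slow genes, *Myh7* and *Tpm3*. *Tpm3* rose by 0.84 (adjusted p = 0.011), and by 0.75 (adjusted p = 0.062) with the replicate numbers as a block, which ends that call. Untreated numbers did not pair, which limits that block. In the same comparison 4 fast genes were lower, beside 0.277% of all probes higher and 0.63% lower (1.44% and 2.36% of the detected ones). *Myh4* is counted in this list by ILMN_1236860, which did not pass in any comparison, while ILMN_1241214 passed in all of them as given above. GL2 siRNA against untreated lowered 6 slow genes, raised 2 fast genes and lowered 1, beside 0.339% of all probes higher and 0.395% lower (2.07% and 2.1% of the detected ones). The median change was 0.84 for the slow list and -0.53 for the fast list with dystrophin siRNA against GL2 siRNA, and 0.08 and -0.50 with dystrophin siRNA against untreated. For GL2 siRNA against untreated the medians were -0.49 and 0.13.

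Finally, the genes whose level across all 18 arrays was most like that of each member were named by Pearson's r over 13916 candidate probes, as a description. For *Prox1* they were *Ankrd50*, *Zim1* and *Jam2* (r = 0.96, 0.96 and 0.96), and 0.86, 0.86 and 0.90 on deviations from the group means. For *Tead4* they were *Aak1*, *Fzd3* and *Lrch1* (0.91, 0.91 and 0.90), and for *Vgll2* the slow-fibre gene *Ankrd2*, then *Il3ra* and *Rcan1* (0.93, 0.93 and 0.92, and 0.67, 0.63 and 0.67 on deviations). For *Tead1* they were *Camta1*, *Nmrk2* and *Txlnb* (0.84, 0.84 and 0.83), for *Six4* *Nxf1*, *Cbll1* and *Prpf8* (0.84, 0.81 and 0.77), for *Six5* *Meis2*, *Arid2* and *Fam117b* (0.83, 0.80 and 0.79), for *Sox6* *Hipk3*, *Luzp1* and *Uck1* (0.83, 0.81 and 0.79), and for *Eya1* *Nhej1*, *Pigq* and *Zfp397* (0.79, 0.77 and 0.76). The 18 points share groups and clusters.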

How the data were processed

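Bead signals and detection p-values of 18 Illumina MouseWG-6 v1.1 arrays were used. The authors deposited bead intensities on a linear scale without background correction, with a detection p-value per probe, exported from BeadStudio. They also deposited intensities after background correction, log2 transformation and quantile normalization with lumi (version not given), back on a linear scale. Here the RMA background model, log2 and quantile normalization were applied to the deposited intensities, and differed from the log2 of the authors' values by a median of 0.0025. All 3 groups entered 1 limma 3.58.1 fit (R 4.3.3) with Benjamini-Hochberg adjustment over 46632 probes and no filter, and no columns were left out. Correlations used exact permutation in Python 3.11.15. The fit was tested on simulated data.

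The platform annotation gave 1 symbol to 29976 probes and several to 10, the study's tables named 99 more, and 16547 stayed unnamed. The probe with the highest mean level represents a gene. Listed genes past the threshold could be named. The 8 genes and all lists were chosen with earlier results of these data known. A group with no detected array gives a bound against the lowest detected level of each array. The number of arrays limits the precision.

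Array numbers are shared between groups. Deviations from the group means of same-numbered dystrophin siRNA and GL2 siRNA arrays correlated at 0.42 to 0.60 in 7 of 7 pairs, so these numbers were taken as pairs. Untreated numbers did not pair (r of -0.04 to 0.25). Alternatives were the background correction, the normalization, the authors' values, a detection filter, both blocks, the groups in the fit, single arrays left out and other probes.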

Additional observations from a re-analysis of the deposited data

Results flagged for a closer look

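In 45 groups of arrays screened (12 member probes and 3 myosin probes in 3 groups), 1 array stood apart by Dixon's 95% limit, where chance sets about 1 in 20 apart. *Six5* was 7.78 on dystrophin siRNA array 7, against 8.11 to 8.26 on the other 6 dystrophin siRNA arrays. *Six5* passed in no comparison with or without that array.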

How the results depend on the processing

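Of 36 member changes (12 probes in 3 comparisons), 8 passed. Other probes of a gene apart, up to 26 alternatives were run for each, and 5 of the 8 passed under all of them. These were *Prox1* against untreated and GL2 siRNA, both *Vgll2* probes against GL2 siRNA and ILMN_1252898 of *Sox6* against GL2 siRNA. No called change turned round under these alternatives, though sizes changed, as given above for *Prox1* and ILMN_1252898. The brightest *Sox6* probe, however, was at 0.17 against GL2 siRNA, where ILMN_1252898 fell. Of the 28 others, 3 passed under some alternative: *Tead1* against untreated (-0.31, adjusted p = 0.047 with no background correction and 0.049 with normexp) and *Tead4* as given above.

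The count of member probes past the threshold was 1 to 2 with 1 array left out for dystrophin siRNA against untreated (1 without untreated array 1 or 3), and 0 to 2 for GL2 siRNA against untreated (0 without untreated array 1). For GL2 siRNA against untreated it was also 1 with the replicate block and 1 with only the groups compared. With the replicate block the second *Vgll2* probe was at an adjusted p of 0.088. Against untreated this block joins arrays by numbers that did not pair, which limits it. Among the other members, myosins and named genes, the block also changed the calls of *Tead4* and *Myh4* against GL2 siRNA, *Tpm3* with dystrophin siRNA against untreated (0.75, adjusted p = 0.062), and *Mef2a* (0.51, adjusted p = 0.095) and *Ankrd1* (-0.58, adjusted p = 0.060) with GL2 siRNA against untreated. Of the fast-fibre calls, *Myh1* with GL2 siRNA against untreated was lost without untreated array 4 (0.91, adjusted p = 0.050), *Myh2* with only the groups compared (adjusted p = 0.064) and *Tnnt3* against GL2 siRNA with median centring (adjusted p = 0.054). Over all probes, dystrophin siRNA against untreated gave 423 calls, 749 without background correction, 737 with normexp, 737 with the detection filter, 698 with the clusters as a block, 267 with only the groups compared and 247 to 270 without 1 untreated array. GL2 siRNA against untreated gave 342 calls, and 854, 836, 811, 973 and 217 under those settings, 147 to 197 without 1 untreated array, and 217 and 227 without GL2 siRNA array 4 or 7. Dystrophin siRNA against GL2 siRNA gave 1752 calls, 2636 without background correction, 2713 with the detection filter and 2735 with the clusters as a block. The relations past the threshold were 0, and 1 with median centring.

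Changes near 0 turned sign with no call. For GL2 siRNA against untreated, *Prox1* ranged from -0.18 to 0.058 with 1 array left out, *Sox6* from -0.050 to 0.21 (and -0.0045 with median centring), its probe ILMN_1224198 was at -0.038 with the replicate block, and the dim *Tead4* probe ranged from -0.46 to 0.046, at -0.21 as another detected probe of *Tead4*. For dystrophin siRNA against untreated, *Six5* ranged from -0.079 to 0.064 (-0.016 with median centring), and the *Vgll2* probes from -0.12 to 0.016 and -0.10 to 0.013. With its other detected probes *Sox6* was at -0.12 and -0.12 against untreated, and at -0.33 and -0.60 against GL2 siRNA. The cause of these differences was not tested. Signal over background limits *Eya1*, the dim *Tead4* probe and ILMN_1241214. It also limits, among others, ILMN_1236860 of *Myh4* (5.43 to 6.75 over all arrays) and ILMN_1252898 of *Sox6* (5.42 to 6.76). The lowest levels detected per array were 4.88 to 5.12.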
